A study of Mus musculus with 8 samples.

Results

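The genes described here are 37 genes of protein folding and stress signalling, taken by symbol from a deposited table of 17384 genes. They cover 14 chaperones and folding enzymes of the endoplasmic reticulum (ER), 4 genes of ER-associated degradation, 3 stress sensors, 8 genes of the ATF4 and CHOP arm and 8 heat shock genes. RNA was sequenced from cells sorted as B220+CD3+ from mouse spleen, in 4 libraries titled EAF2Faslpr and 4 titled Faslpr. Every library came from mice of the Faslpr genotype, in which the lpr mutation disrupts Fas, the gene of a death receptor, so that T cells bearing the B cell marker B220 accumulate. The EAF2Faslpr libraries came from mice that in addition were Eaf2-/-, that is, without Eaf2, which encodes a factor that binds the ELL elongation factors of RNA polymerase II. The series was set up to look at signalling pathways of apoptosis. The sources used here do not give strain background, age, sex, treatment or the deleted part of Eaf2. Nothing in the labels says that replicates were separate animals; p-values therefore refer to the spread of these samples alone, and that spread may be technical.

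Proteins bound for secretion or for membranes fold in the ER, helped by chaperones such as BiP (the product of Hspa5) and by protein disulfide isomerases. When unfolded proteins build up, the sensors IRE1 (Ern1), ATF6 and PERK (Eif2ak3) start the unfolded protein response: IRE1 and ATF6 raise chaperone and degradation genes, and PERK phosphorylates the translation factor eIF2. Phosphorylated eIF2, which other kinases also produce in the integrated stress response, slows protein synthesis in general but favours translation of ATF4, which in turn raises CHOP (Ddit3) and genes of amino acid supply. Heat shock genes form a separate cytosolic programme under the factor HSF1. In lymphocytes the ER programme is best known from antibody-secreting cells, and CHOP is known for its part in cell death under lasting stress.

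The best known DNA element of the ER programme is the ER stress element, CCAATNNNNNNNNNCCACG, which was looked for on both strands of the RefSeq promoter windows (build GRCm38.p6, 250 bases before to 50 after each start). It was present in 39 of 32851 windows (0.119%), and 32 of the 37 genes had a window. It stood in the windows of 8 of them, whose elements are shown because these genes did not move together in the data below; capitals mark the fixed bases of the element, written 5′ to 3′ on the strand that matches.
Hspa5: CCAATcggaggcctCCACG
Dnajc3: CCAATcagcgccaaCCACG
Hsp90b1, far element: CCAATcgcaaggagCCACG
Hsp90b1, near element: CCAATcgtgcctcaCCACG
Creld2: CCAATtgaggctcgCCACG
Calr: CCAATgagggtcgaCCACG
Canx: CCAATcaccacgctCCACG
Pdia6: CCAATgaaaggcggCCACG
Syvn1: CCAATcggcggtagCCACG

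The 250 bases upstream of Hspa5, Dnajc3 and Hsp90b1 are given in full, because the first 2 genes were higher and the last was lower in EAF2Faslpr cells. Each is written on the gene's strand and ends at the base before the start, with the ER stress element in capitals (in Hsp90b1 the second element is in the opposite orientation). The windows are chr2:34771840-34772089 (+) for Hspa5, chr14:118937682-118937931 (+) for Dnajc3 and chr10:86705445-86705694 (−) for Hsp90b1.
Hspa5: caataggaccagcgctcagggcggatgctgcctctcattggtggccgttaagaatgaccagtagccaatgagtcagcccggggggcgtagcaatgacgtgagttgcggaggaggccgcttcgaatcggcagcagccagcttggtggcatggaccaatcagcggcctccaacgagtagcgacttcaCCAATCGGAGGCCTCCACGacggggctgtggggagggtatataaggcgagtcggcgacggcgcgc
Dnajc3: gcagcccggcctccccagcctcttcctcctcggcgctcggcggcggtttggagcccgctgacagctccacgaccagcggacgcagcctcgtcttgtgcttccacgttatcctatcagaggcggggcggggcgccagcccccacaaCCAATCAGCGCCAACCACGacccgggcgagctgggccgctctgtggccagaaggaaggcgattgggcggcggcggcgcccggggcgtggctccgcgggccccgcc
Hsp90b1: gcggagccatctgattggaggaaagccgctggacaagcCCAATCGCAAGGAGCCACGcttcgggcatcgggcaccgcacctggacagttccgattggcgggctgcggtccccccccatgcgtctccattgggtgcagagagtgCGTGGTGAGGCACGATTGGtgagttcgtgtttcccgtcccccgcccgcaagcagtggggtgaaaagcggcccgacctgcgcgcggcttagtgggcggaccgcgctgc

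The element lies from 65 to 47 bases upstream of the start in Hspa5 and from 105 to 87 bases upstream in Dnajc3. Hsp90b1 holds a pair of elements, from 212 to 194 and from 107 to 89 bases upstream. Of the 8 genes with the element, Hspa5 and Dnajc3 passed the test as higher, Hsp90b1 passed as lower, and Creld2, Calr, Canx, Pdia6 and Syvn1 did not pass.

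The library of Faslpr replicate 4 stood apart from its group: its counts differed from those of the other 3 Faslpr libraries by a chi-square per degree of freedom of 23.6 to 37.2, beside 13.5 to 15.7 among those 3 and 9.46 to 23.5 among EAF2Faslpr libraries. Without it the 8 genes called below all passed, 6 higher and 2 lower. Of the 37 genes, 35 had enough reads to be tested and 8 of them (22.9%) differed at an adjusted p under 0.05 (edgeR's quasi-likelihood test, Benjamini-Hochberg adjustment over 12340 genes), beside 12.1% of all genes tested. Among them 6 were higher in EAF2Faslpr cells, beside 7.14% of all genes, and 2 were lower, beside 4.96% of all genes. The higher genes were Hspa5, Dnajb9, Dnajc3, Atf4, Ddit3 and Ppp1r15a, and the lower ones were Hsp90b1 and Ddit4. In each of these 8 genes the 4 EAF2Faslpr libraries lay apart from the 4 Faslpr libraries in CPM, counts per megaread of the tested genes after scaling; over all genes tested, 9.71% lay apart as higher and 7.96% as lower. No other tested gene of the 35 lay apart. The median log2 fold change (EAF2Faslpr over Faslpr) was 0.0702 for the 18 ER folding and degradation genes, 0.341 for the 7 tested ATF4 and CHOP arm genes and 0.114 for the 7 tested heat shock genes, beside −0.0127 for all genes tested. These medians moved with single libraries, to 0.00815 for the ER genes without Faslpr replicate 2, to 0.221 for the ATF4 and CHOP arm without Faslpr replicate 1, and to 0.0558 and 0.207 for the heat shock genes without Faslpr replicates 2 and 1. Calls fell in the ER chaperones (3 higher and 1 lower of 14) and in the ATF4 and CHOP arm (3 higher and 1 lower of 7), whereas the degradation genes, the sensors and the heat shock genes had none by this test.

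**Figure D1:**
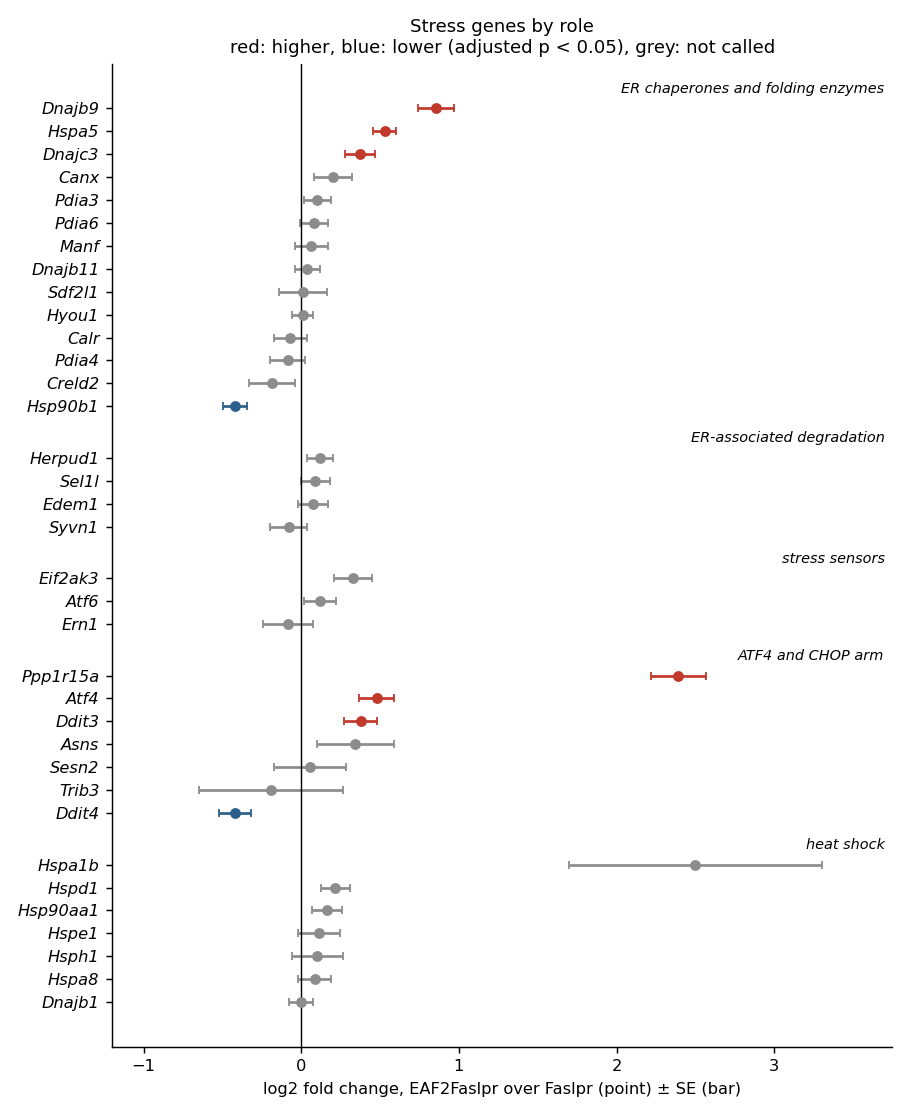
Log2 fold change of the 35 tested genes (EAF2Faslpr over Faslpr, points) with its standard error (bars), grouped by role, each role sorted by value. Ppp1r15a at 2.39 stands far to the right of the other called genes, Hspa1b at 2.50 has a standard error of 0.80, and most ER genes lie close to 0.

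The libraries held between 15.6 M and 18.6 M estimated reads (M, megareads), and 3 reads, the limit that a count of 0 allows, corresponded to 0.161 to 0.193 CPM, for counting error only. Within each group, replicates were farther apart than sampling noise. Eaf2 itself measured 4.43, 4.20, 4.02 and 6.29 CPM in EAF2Faslpr replicates 1 to 4 and 25.7, 24.2, 20.7 and 31.5 CPM in Faslpr replicates 1 to 4 (log2 fold change −2.43, SE 0.18, edgeR adjusted p = 2.9e-05), in the direction of the labels. T cell genes had overlapping summed levels in the groups (3570 to 3820 against 3480 to 4230 CPM), and 0 of 7 passed edgeR's test, with 1, Zap70, at an unadjusted p under 0.05 and called by DESeq2. B cell markers were present at a lower level and differed: 10 of 10 tested were higher in EAF2Faslpr libraries (summed 300.0 to 556 against 59.4 to 123.5 CPM), with the highest sum in EAF2Faslpr replicate 3. That library also stood apart in neutrophil genes (109 CPM summed, against 12.5 to 19.8 CPM in the other 7; 0 of 5 passed edgeR's test, 4 at an unadjusted p under 0.05, and DESeq2 called Ngp), and macrophage genes summed to 83.0 to 187 against 71.4 to 93.0 CPM, with 2 of 11 higher, Lyz2 and Cybb (Cybb alone by DESeq2 and limma). Dendritic and erythroid genes gave 0 of 5 and 0 of 4 calls by edgeR, DESeq2 or limma, and 0 unadjusted p values under 0.05. In these bulk libraries fewer cells of a type and less RNA per cell cannot be told apart.

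Among the ER chaperones, Hspa5 was higher and Hsp90b1 lower in EAF2Faslpr cells. Hspa5 encodes BiP, the main HSP70 chaperone of the ER and the protein that holds the 3 sensors inactive. It measured 660.3, 658, 679.6 and 732 CPM in EAF2Faslpr replicates 1 to 4 and 465, 426, 499 and 504 CPM in Faslpr replicates 1 to 4. Every EAF2Faslpr library was above every Faslpr library, a 1.44-fold higher level (log2 fold change 0.53, SE 0.08, edgeR adjusted p = 0.00162). Hsp90b1 encodes GRP94, the HSP90 chaperone of the ER, which folds Toll-like receptors and integrins. It measured 1268, 1373, 1245 and 1369.6 CPM in EAF2Faslpr cells and 1775, 1645, 1669 and 1939 CPM in Faslpr cells. The groups again did not overlap, here with EAF2Faslpr the lower by 1.34-fold (log2 fold change −0.42, SE 0.08, edgeR adjusted p = 0.00575). Both genes passed with each of the 8 libraries left out in turn, Hspa5 at adjusted p values up to 0.00678 and Hsp90b1 up to 0.0182.

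Because both are measured in the same libraries, the level of Hspa5 can be set against that of Hsp90b1 per length, in TPM (transcripts per megatranscript, the authors' values). Hspa5 stood at 56.5, 51.9, 59.2 and 57.9% of Hsp90b1 in EAF2Faslpr replicates 1 to 4 and at 28.5, 28.1, 32.5 and 28.2% in Faslpr replicates 1 to 4. Hsp90b1 was thus the more abundant of the pair in every library, by a smaller margin in EAF2Faslpr cells. This ratio was chosen after the values were seen and was not tested. The summed TPM of all 18 ER folding and degradation genes overlapped between groups, at 3640 to 4010 in EAF2Faslpr and 3540 to 4080 in Faslpr libraries.

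**Figure D2:**
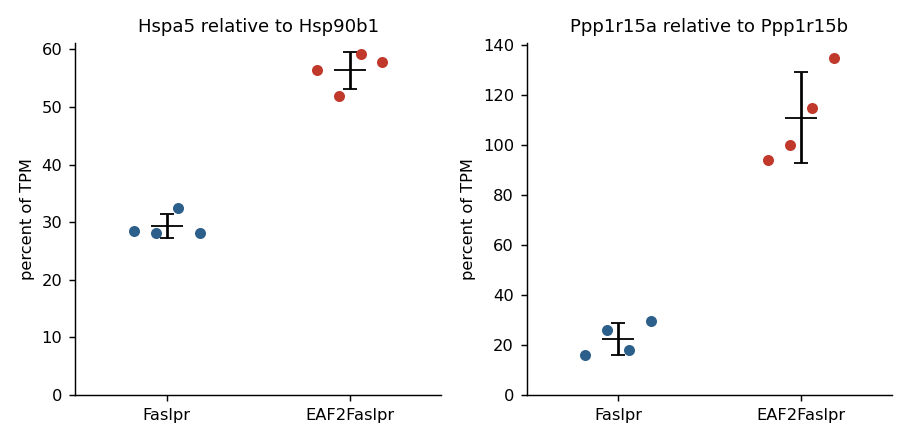
Level of Hspa5 as a percent of Hsp90b1 (left) and of Ppp1r15a as a percent of Ppp1r15b (right), both in TPM; points are libraries, bars the mean and SD of 4. Hspa5 lies between 51.9 and 59.2% in EAF2Faslpr and between 28.1 and 32.5% in Faslpr libraries, and Ppp1r15a between 94.0 and 135% against 15.9 and 29.4%.

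Both other higher ER genes were co-chaperones of BiP. Dnajb9 encodes ERdj4, a J-domain protein that delivers misfolded proteins for degradation and represses IRE1. It measured 39.6, 36.3, 37.5 and 43.4 CPM in EAF2Faslpr cells and 20.1, 20.7, 26.7 and 19.2 CPM in Faslpr cells. This was the largest change among the ER genes, 1.81-fold (log2 fold change 0.85, SE 0.11, edgeR adjusted p = 0.00116), and it passed with each library left out. Dnajc3 encodes p58IPK, a J-domain co-chaperone of the ER lumen also known as an inhibitor of PERK. It measured 179, 185, 179 and 182 CPM in EAF2Faslpr cells and 158, 129, 153 and 119 CPM in Faslpr cells. The EAF2Faslpr libraries were close together and all above the Faslpr libraries, which spread more widely (1.29-fold, log2 fold change 0.37, SE 0.09, edgeR adjusted p = 0.0251). The call on Dnajc3 was lost without EAF2Faslpr replicate 2 (adjusted p = 0.0638), replicate 3 (0.0544) or replicate 4 (0.0637), and without Faslpr replicate 2 (0.0795). Hspa5, Dnajb9 and Dnajc3 had 0%, 5.50% and 0% of their 50-base windows in other annotated genes. For Hsp90b1 the share was 2.96%. Its exons overlap those of Gm15344 and Gm25745 on the same strand and of 1810014B01Rik on the opposite strand.

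The other 10 chaperones and folding enzymes did not pass, with log2 fold changes from −0.19 for Creld2 to 0.20 for Canx. Dnajb11, another J-domain partner of BiP, measured 91.7 to 95.3 CPM in EAF2Faslpr and 82.7 to 103 CPM in Faslpr libraries (log2 fold change 0.04, SE 0.08). Of other genes commonly induced together with Hspa5, Hyou1, an ER nucleotide exchange factor, had a log2 fold change of 0.01 (SE 0.07), Sdf2l1 of 0.01 (SE 0.15) and Manf of 0.06 (SE 0.11). The lectin chaperones that hold glycoproteins were measured at 411 to 467 against 387 to 553 CPM for Calr and 295 to 334 against 214 to 330.3 CPM for Canx. Of the disulfide isomerases, Pdia3 had a log2 fold change of 0.10 (SE 0.09), Pdia4 of −0.09 (SE 0.11) and Pdia6 of 0.08 (SE 0.09). For these 10 genes the values of the groups overlapped, and their edgeR adjusted p values ran from 0.349 to 0.972.

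**Figure D3:**
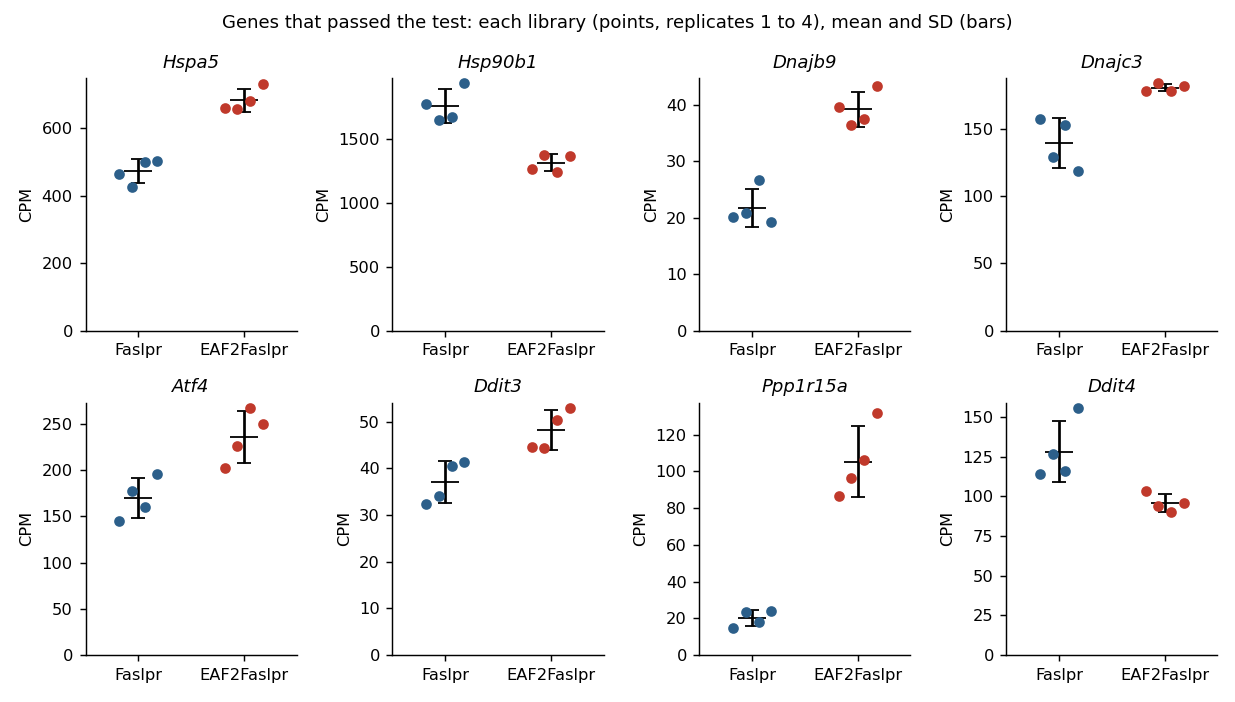
CPM in each library (points, replicates 1 to 4 from left to right) with the group mean and SD (bars) for the 8 genes that passed the test; every axis starts at 0. The groups do not overlap in any panel; Hsp90b1 and Ddit4 are lower and the other 6 higher in EAF2Faslpr cells.

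The genes of ER-associated degradation, which return misfolded proteins to the cytosol for the proteasome, showed no call. Herpud1, a membrane component of that machinery, measured 42.9 to 49.4 CPM in EAF2Faslpr and 39.7 to 48.2 CPM in Faslpr libraries (log2 fold change 0.12, SE 0.08, edgeR adjusted p = 0.436). Sel1l and Syvn1, the adaptor and the ubiquitin ligase of the HRD1 complex, had log2 fold changes of 0.09 (SE 0.09) and −0.08 (SE 0.12), and Edem1, which picks out mannose-trimmed glycoproteins, of 0.08 (SE 0.10). With edgeR 0 of 4 passed, 0 had an unadjusted p under 0.05, and DESeq2 and limma called 0 as well. Genes of the wider degradation machinery gave a like picture: of 17 tested, 0 passed edgeR's test, 1 had an unadjusted p under 0.05 and DESeq2 and limma called 0, at a median log2 fold change of 0.00386.

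The 3 sensors were expressed at low levels per length and did not pass. Ern1, which encodes IRE1, measured 17.1, 16.3, 14.1 and 16.5 CPM in EAF2Faslpr cells and 18.2, 17.8, 20.2 and 11.7 CPM in Faslpr cells (log2 fold change −0.08, SE 0.16). Atf6, the membrane-bound precursor of a transcription factor, measured 23.1 to 30.8 against 23.3 to 24.7 CPM (log2 fold change 0.12, SE 0.10). Eif2ak3, which encodes the eIF2 kinase PERK, measured 23.3, 21.0, 19.7 and 19.4 CPM in EAF2Faslpr cells and 17.2, 15, 19.6 and 14.4 CPM in Faslpr cells. Faslpr replicate 3 alone reached into the EAF2Faslpr range (log2 fold change 0.33, SE 0.12, edgeR adjusted p = 0.110), and without it Eif2ak3 passed at an adjusted p of 0.0410. With all 8 libraries edgeR called 0 of 3 sensors, 1 had an unadjusted p under 0.05, and DESeq2 and limma called 0. Downstream of IRE1, whose RNase splices the Xbp1 transcript, total Xbp1 transcript fell by 1.40-fold from 290.2 ± 12.7 to 208 ± 23.6 CPM (SD, n = 4 each; edgeR adjusted p = 0.00497), the only call among 11 further factors of the response; spliced and unspliced forms are not separated in the table. Xbp1 is also a marker of antibody-secreting cells, and that marker list had 2 of 10 tested genes lower, Xbp1 and Slamf7, at summed levels of 2787 to 3327 against 3512 to 3857 CPM (Slamf7 not without EAF2Faslpr replicate 3 or Faslpr replicate 1, adjusted p up to 0.0553); DESeq2 also called Sdc1 lower, and 2 of the 10, Irf4 and Txndc5, had log2 fold changes above 0. Slamf7, Pou2af1 and Sdc1 had the highest levels in this sum. Jchain, Mzb1 and Derl3 of the same list overlapped between groups and varied within Faslpr cells. Jchain measured 83.4, 98.8, 74.0 and 57.1 CPM in EAF2Faslpr and 55.7, 45.8, 163 and 171 CPM in Faslpr replicates 1 to 4. Mzb1 measured 23.8, 29.5, 20.3 and 17.8 against 14.7, 13.3, 40.9 and 30.3 CPM. The part of these markers in the results for ER genes was not tested.

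In the ATF4 and CHOP arm the change of greatest size was in Ppp1r15a, which encodes GADD34, the stress-induced subunit that directs protein phosphatase 1 to eIF2 and so restores translation. It measured 86.8, 96.3, 106 and 132 CPM in EAF2Faslpr cells and 14.9, 23.4, 17.9 and 24.2 CPM in Faslpr cells. The lowest EAF2Faslpr library was far above the highest Faslpr library, a 5.25-fold higher level (log2 fold change 2.39, SE 0.17, edgeR adjusted p = 2.75e-05) that passed with each library left out (adjusted p at most 0.000191). Ppp1r15b, its constitutive counterpart, had 229.7 ± 6.20 against 222 ± 18.1 CPM (SD over 4 libraries each; edgeR adjusted p = 0.738). Per length, in TPM, Ppp1r15a thus stood at 94.0, 100, 115 and 135% of Ppp1r15b in EAF2Faslpr replicates 1 to 4 and at 15.9, 26, 17.9 and 29.4% in Faslpr replicates 1 to 4, a ratio chosen after the values were seen and not tested. Exons of Ppp1r15a overlap those of Tulp2 on the opposite strand, and the sources used here do not give the strand setting of the counting. Tulp2 itself passed as higher, at 4.13 ± 0.706 against 2.05 ± 0.518 CPM (2.01-fold, edgeR adjusted p = 0.0174), with no overlap between the groups. That call was lost without EAF2Faslpr replicate 3 or replicate 4 and without Faslpr replicate 2 (adjusted p up to 0.0562). The part of shared reads in either change was not tested.

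Its upstream sequence is shown because it carried the largest called change of the 37 genes and held none of the 5 stress elements looked for. The window is chr7:45526269-45526518 (−) of GRCm38.p6, and capitals mark a cAMP response element, TGACGTCA, from 12 to 5 bases before the start. That element was added to the search after the results were seen and stood in 1.79% of all windows.
Ppp1r15a: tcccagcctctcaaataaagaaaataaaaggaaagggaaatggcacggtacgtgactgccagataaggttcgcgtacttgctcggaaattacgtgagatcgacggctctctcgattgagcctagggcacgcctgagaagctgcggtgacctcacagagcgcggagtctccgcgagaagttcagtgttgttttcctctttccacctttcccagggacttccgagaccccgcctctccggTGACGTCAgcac

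Atf4 and Ddit3 rose less. Atf4, the transcription factor of the integrated stress response, measured 202, 226, 267 and 250.3 CPM in EAF2Faslpr cells and 146, 177, 159.8 and 196 CPM in Faslpr cells. The lowest EAF2Faslpr library lay just above the highest Faslpr library (1.39-fold, log2 fold change 0.48, SE 0.11, edgeR adjusted p = 0.0191). Its call was lost without EAF2Faslpr replicate 3 (adjusted p = 0.0554) or replicate 4 (0.0558) and without Faslpr replicate 1 (0.0508). Ddit3, which encodes CHOP, measured 44.6, 44.3, 50.4 and 53.0 CPM in EAF2Faslpr cells and 32.3, 34.1, 40.5 and 41.3 CPM in Faslpr cells. The groups lay side by side without overlap (1.3-fold, log2 fold change 0.38, SE 0.10, edgeR adjusted p = 0.0385). The call on Ddit3 was lost without EAF2Faslpr replicate 2 (adjusted p = 0.0511), replicate 3 (0.101) or replicate 4 (0.115), without Faslpr replicate 1 (0.0960) or replicate 2 (0.117), and with limma on log2(FPKM + 1) (0.0649). Exons of Ddit3 overlap Mars1 on the opposite strand, which measured 119 ± 25.1 against 115 ± 39.7 CPM.

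Ddit4 went the other way. It encodes REDD1, an inhibitor of the growth kinase mTORC1 that ATF4, hypoxia and glucocorticoids induce. It measured 104, 94.0, 90.0 and 95.8 CPM in EAF2Faslpr cells and 114, 127, 116 and 156 CPM in Faslpr cells. Faslpr replicate 4 was the highest library, and all Faslpr libraries were above all EAF2Faslpr libraries (1.34-fold lower in EAF2Faslpr, log2 fold change −0.42, SE 0.10, edgeR adjusted p = 0.0229). The call was lost without EAF2Faslpr replicate 2 (adjusted p = 0.0597), replicate 3 (0.0666) or replicate 4 (0.0595), and without Faslpr replicate 2 (0.0603).

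**Figure D4:**
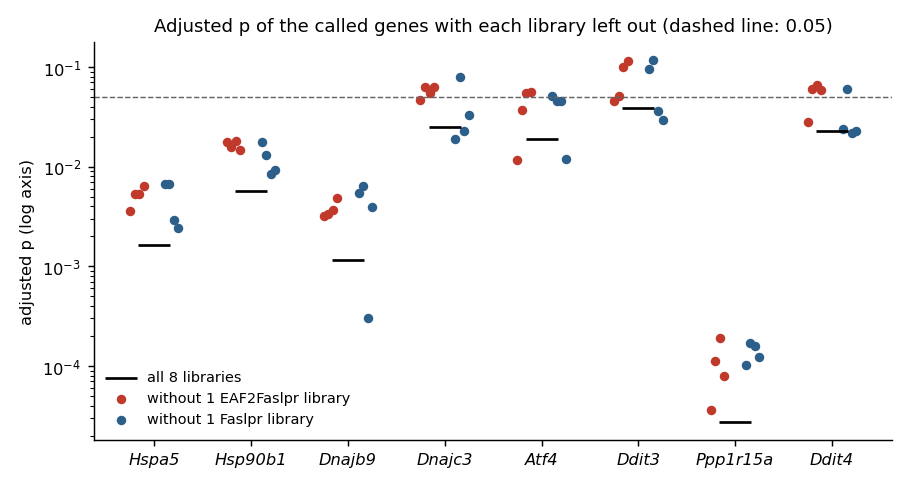
Adjusted p (edgeR, log axis) of the 8 called genes with all 8 libraries (black bars) and with 1 EAF2Faslpr or 1 Faslpr library left out (points); the dashed line is 0.05. Hspa5, Hsp90b1, Dnajb9 and Ppp1r15a stay under the line throughout, and Dnajc3, Atf4, Ddit3 and Ddit4 cross it in 3 to 5 of the 8 fits.

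The remaining ATF4 and CHOP arm genes were scarce or did not pass. Asns, the asparagine synthetase, measured 1.98 to 3.34 CPM in EAF2Faslpr and 1.66 to 2.86 CPM in Faslpr libraries (log2 fold change 0.34, SE 0.24, edgeR adjusted p = 0.440). Sesn2, an amino acid sensor of the mTORC1 pathway, measured 5.46 to 12.1 against 8.64 to 11.6 CPM, with EAF2Faslpr replicate 3 the lowest of all 8. Trib3, a pseudokinase induced by CHOP, had 6 to 12 reads per EAF2Faslpr library and 3 to 17 per Faslpr library. Chac1, a glutathione-degrading enzyme of the same arm, had 1 to 5 reads per library and was not tested. At this depth a change in Trib3 or Chac1 was hardly detectable.

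Other targets of ATF4 gave few calls: of 24 tested, 1 was higher and 1 lower, at a median log2 fold change of −0.00881. Cebpb, a transcription factor gene, had 3.62 ± 1.39 against 1.51 ± 0.584 CPM (SD, n = 4 each; edgeR adjusted p = 0.0407), a call kept without EAF2Faslpr replicate 2 or without Faslpr replicate 4 and lost without any of the other 6 libraries (adjusted p up to 0.115), and by limma-voom. Gpt2, an alanine transaminase, was 1.92-fold lower at 5.93 ± 1.18 against 11.4 ± 1.76 CPM (edgeR adjusted p = 0.00602). A list of 10 genes held the other eIF2 kinases, the eIF2B subunits, Eif2s1 and Ppp1r15b. Of these 10, 0 passed edgeR's test, with 1 at an unadjusted p under 0.05 and 1, Eif2ak1, called by DESeq2. Eif2ak1 measured 53.4 ± 5.73 against 65.1 ± 4.49 CPM (edgeR adjusted p = 0.0727).

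Ppp1r15a, Atf4 and Ddit3 were not the only rapidly induced transcripts to differ. Of 14 immediate early genes, which respond within minutes to stimulation, 11 were higher in EAF2Faslpr cells, beside 7.14% of all genes tested. The median log2 fold change of the 14 was 1.0. Changes among the 11 differed in size, with Jun at 62.7-fold, Dusp1 at 9.67-fold and Ier2 at 1.43-fold. Jun also varied within EAF2Faslpr libraries, from 87.9 to 331 CPM. The other 3 of the 14 did not pass: Egr1 at 407 against 413 CPM, Btg2 at 382 against 335 CPM and Ier3 at 4.04 against 1.94 CPM (group means). The CPM of the 14 summed to 2884, 2830, 3734 and 4331 in EAF2Faslpr replicates 1 to 4 and to 1848, 1654, 1734 and 2034 in Faslpr replicates 1 to 4. The sums did not overlap between the groups. The part of these genes, and of the B cell genes given above, in the results for the stress genes was not tested.

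No heat shock gene passed edgeR's test, and the abundant ones had small fold changes. Hspa8, the constitutive HSP70 of the cytosol, measured 1970.4, 1813, 1952 and 2291 CPM in EAF2Faslpr cells and 2082, 1578, 1888 and 2020.0 CPM in Faslpr cells. The groups overlapped (log2 fold change 0.08, SE 0.10, edgeR adjusted p = 0.683). Dnajb1, a co-chaperone that HSF1 strongly induces, had a log2 fold change of −0.00195 (SE 0.08), Hsph1, an HSP110 exchange factor, of 0.10 (SE 0.16), and Hsp90aa1, the inducible cytosolic HSP90, of 0.16 (SE 0.09). Hspd1 and Hspe1 encode the mitochondrial chaperonin and its lid, share a promoter and stand apart from the cytosolic programme. Hspd1 measured 226 to 279 against 185 to 237 CPM (log2 fold change 0.22, SE 0.09, edgeR adjusted p = 0.174) and Hspe1 69.8 to 89.4 against 63.2 to 94.3 CPM. The 5 cytosolic genes tested had a median log2 fold change of 0.102.

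The inducible HSP70 genes Hspa1a and Hspa1b, the classical readout of heat shock, were barely detected. Hspa1b had 23.29, 16.67, 10.25 and 64.02 estimated reads in EAF2Faslpr replicates 1 to 4 and 3, 3.25, 14.18 and 0 in Faslpr replicates 1 to 4. Faslpr replicate 3 reached above EAF2Faslpr replicate 3, and the fitted log2 fold change of 2.50 had an SE of 0.80 (edgeR adjusted p = 0.0732). Hspa1b passed by DESeq2 (adjusted p = 0.0240) and, in edgeR, without Faslpr replicate 3 (adjusted p = 0.0243). Hspa1a had 6.87, 0, 10.65 and 17.01 reads in EAF2Faslpr and 6.73, 0, 0 and 5.27 in Faslpr libraries and was not tested. These genes are near copies, with 60.35% of the 50-base windows of Hspa1a and 62.31% of those of Hspa1b found in other genes. The split between Hspa1a and Hspa1b is therefore uncertain. Summed, they had 16.7 to 81.0 reads in EAF2Faslpr and 3.25 to 14.2 in Faslpr libraries, ranges that did not overlap. The sum was not tested. Pseudogene copies likewise share 38.58% of the windows of Hspa8, 47.49% of Hsp90aa1 and 39.74% of Hspd1. By edgeR 0 of 7 heat shock genes passed, 2 had an unadjusted p under 0.05 (Hspa1b and Hspd1), DESeq2 called 1 and limma 0.

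Among 32 further heat shock factors and chaperones tested, 2 were lower and 0 higher by edgeR's test. Hspa14, an HSP70 of the ribosome, had 102 ± 4.72 against 131 ± 11.8 CPM (SD, n = 4 each; edgeR adjusted p = 0.0143), and Hspa2 had 19.4 ± 1.93 against 25.3 ± 2.73 CPM (adjusted p = 0.0476), a call kept without EAF2Faslpr replicate 2 or without Faslpr replicate 3 and lost without any of the other 6 libraries (adjusted p up to 0.131). Bag3, a co-chaperone gene induced by HSF1, stood just outside the threshold at 49.8 ± 4.66 against 35.8 ± 7.12 CPM (adjusted p = 0.0519), and DESeq2 and limma-voom called it. Unadjusted p values under 0.05 were found for 6 of the 32.

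Further genes of ER protein handling gave few calls by edgeR's test. Of 19 genes of translocation into the ER, 1 was lower and 0 higher: Srp68, of the signal recognition particle, at 164 ± 8.46 against 269.8 ± 22.5 CPM (SD, n = 4 each; 1.65-fold, edgeR adjusted p = 0.000311). In the same list 7 genes had an unadjusted p under 0.05, and 13 of 19 had log2 fold changes above 0. In CPM 4 lay apart as higher and 1 as lower, beside 9.71% and 7.96% of all genes tested. DESeq2 called 4, Sec63, Ssr3, Sec11c and Srp68, and limma on log2(FPKM + 1) called Ssr3 and Srp68. Of 17 tested genes of oxidative folding and other ER folding factors, 1 was higher, Erp44, a retention factor for ER oxidases, at 82.6 ± 7.63 against 65.7 ± 5.25 CPM (edgeR adjusted p = 0.0322). That call was kept without EAF2Faslpr replicate 3 or without Faslpr replicate 3 and lost without any of the other 6 libraries (adjusted p up to 0.101). Over all 130 tested genes of the 7 wider lists, 5.38% were called, beside 12.1% of all genes tested and 22.9% of the 35 genes above.

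Levels per length differed widely between the 37 genes. Hspa8 was the most abundant, at 2228 ± 257 against 2095 ± 248 TPM (EAF2Faslpr against Faslpr, SD over 4 libraries each), and alone made up 26 to 29.8% of the summed TPM of the 37 genes. Hsp90b1 followed at 1106 ± 70.6 against 1473 ± 59.7 TPM. In Faslpr cells Calr, at 542 ± 62.0 TPM, came before Hspa5, at 432 ± 33.6 TPM, and in EAF2Faslpr cells Hspa5, at 623 ± 39.6 TPM, came before Calr, at 519.6 ± 38.8 TPM. Hsp90aa1, at 431 ± 47.2 TPM in Faslpr cells, lay within the spread of Hspa5 there. Atf4 led its arm at 365 ± 42.8 against 259.6 ± 23.1 TPM, and Ppp1r15a moved from 19.9 ± 3.80 TPM in Faslpr to 105 ± 20.6 TPM in EAF2Faslpr cells. The sensors lay between 5.44 and 11 TPM at their group means, and Trib3, Chac1, Hspa1a and Hspa1b lay near or under 1 TPM. Together the 37 genes held 0.751 to 0.873% of all TPM in EAF2Faslpr and 0.679 to 0.796% in Faslpr libraries, ranges that overlap.

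**Figure D5:**
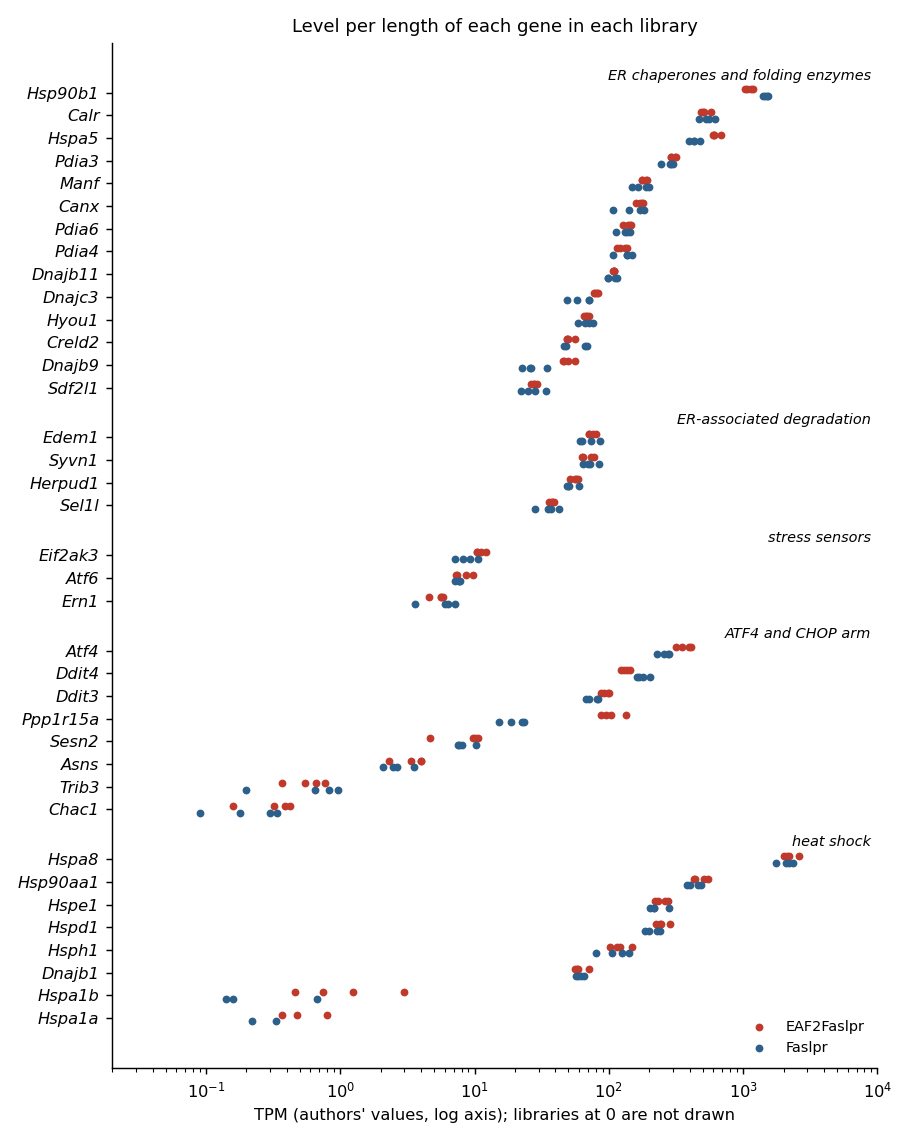
Level of each of the 37 genes in each library in TPM (log axis), grouped by role and sorted by mean level; red points are EAF2Faslpr and blue points Faslpr libraries, and libraries at 0 are not drawn. Hspa8 and Hsp90b1 lie at the top, Hspa1a, Hspa1b, Chac1 and Trib3 at the bottom, and Ppp1r15a is the gene whose colours lie farthest apart among those above 5 TPM.

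A further 4 stress elements were looked for in the same windows. The ER stress element II, ATTGGNCCACG, stood in 0.0365% of all windows and in 2 of the 32, those of Dnajb11 and Herpud1. The unfolded protein response element, TGACGTGG, stood in 0.676% of all windows and in 0 of the 32. The amino acid response element core, TTGCATCA, bound by ATF4 with C/EBP partners, stood in 0.895% of all windows and in 2 of the 32, those of Herpud1 and Chac1. The heat shock element, GAANNTTCNNGAA or TTCNNGAANNTTC, stood in 0.603% of all windows and in 3 of the 32, those of Hsph1, Hspd1 and Hspe1, where Hspd1 and Hspe1 share the same bases. No window of Dnajb9, Atf4, Ddit3, Ppp1r15a or Ddit4, all of which passed the test, held any of these 5 elements; matches are exact and describe the letters of these windows only.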

How the data were processed

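RNA was measured in 8 libraries of sorted B220+CD3+ spleen cells, grouped by sample title into 4 EAF2Faslpr and 4 Faslpr libraries. The authors deposited 1 table of 17384 genes with, per library, estimated counts (RSEM expected counts, not scaled), FPKM and TPM; a further 8 per-sample columns of normalised read counts were not used. HISAT2 2.2.1, Bowtie2 2.4.5, RSEM 1.3.1 and build GRCm39 are named in the submitters' processing notes, with no role or order; the sources used here do not give annotation, filters or strand setting. RSEM shares out reads that match several genes, and 36.8% of the deposited estimated counts were whole within 0.001.

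Estimated counts were rounded, filtered with filterByExpr (12340 genes left), scaled with TMM factors and tested over all 8 libraries with edgeR's quasi-likelihood test (edgeR 4.0.16, R 4.3.3) with Benjamini-Hochberg adjustment and a threshold of 0.05. Standard errors (SE) were derived as the size of the log2 fold change over the square root of F. The authors' TPM were used for levels between genes, and their FPKM for a limma fit of log2(FPKM + 1), a scale that understates changes of low genes. The other settings were median-ratio scaling, DESeq2 1.42.0, limma-voom (limma 3.58.1), no filter, a replicate block, each library left out, and both replicates numbered 4 left out. The fit was tested on simulated data.

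The genes and lists were chosen with earlier results of these data known. All 37 genes are accounted for; library values are given for those that passed or stand for their role, and up to 2 passing genes in each direction from each wider list. Ppp1r15b, Bag3, Eif2ak1, Tulp2, Mars1, Slamf7, Zap70, Ngp, Lyz2, Cybb, Sdc1, Irf4, Txndc5, Jun and Dusp1 were named after their values were seen. So were Pou2af1, Jchain, Mzb1, Derl3, Prdm1, Sec63, Ssr3, Sec11c, Egr1, Btg2, Ier2 and Ier3. Xbp1, Derl3 and Txndc5 stand in a wider list and in the antibody-secreting cell markers. Promoter windows were taken from RefSeq (GRCm38.p6) by symbol. Read sharing was searched in 50-base windows of GENCODE vM21 transcripts, by symbol.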

Additional observations from a re-analysis of the deposited data

Results flagged for a closer look

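Hspe1, the lid of the mitochondrial chaperonin, was higher in 1 Faslpr library than in the others: 94.3 CPM in replicate 4, against 63.2 to 66.8 CPM in replicates 1 to 3. The gap was larger than Dixon's 95% limit for 4 values. It was the only such case among 70 groups looked at (35 genes in each of the genotypes). Chance alone gives about 1 in 20, a larger share than was found. Faslpr replicate 4 is also the library that stood apart from its group over all genes. Of the 50-base windows of Hspe1, 18.39% lie in other annotated genes. Exons of Hspe1 and Hspd1 overlap on opposite strands, and Hspd1 measured 216 CPM in that library.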

How the results depend on the processing

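The counts of 6 higher and 2 lower genes stayed within 1.5 times under median-ratio scaling, DESeq2 (7 and 2), limma-voom, no filter and limma on log2(FPKM + 1) (5 and 2). With a replicate block they were 6 and 2 (1425 of all genes called, against 1493). Without both replicates numbered 4, 4 genes were higher and 1 lower, and Dnajc3 (adjusted p = 0.0793), Ddit3 (0.0750) and Ddit4 (0.0550) lost their calls. Leaving out 1 library gave 3 to 8 higher and 1 to 2 lower genes, and 990 to 1599 called over all genes, the lowest without Faslpr replicate 2. The medians of the 3 lists moved by less than 1 SD between replicates in all 15 settings, yet by over 1.5 times in some. Leaving out 1 of 4 libraries can hardly move a median by that SD, so this says little about stability. That of the ER genes (0.0702, SD 0.104) ran from 0.00815 without Faslpr replicate 2 to 0.0992 without both replicates 4, that of the ATF4 and CHOP arm (0.341, SD 0.158) from 0.199 by limma on FPKM to 0.421 without Faslpr replicate 3, and that of the heat shock genes (0.114, SD 0.141) from 0.0558 without Faslpr replicate 2 to 0.207 without Faslpr replicate 1. No called gene changed direction in any setting. Of 524 values of single genes, 20 lost and 3 gained a call and 31 changed sign, all of the last in 12 genes that did not pass. These were, in log2 fold change, Hyou1 (−0.00432 with no filter, −0.015 without both replicates 4), Sdf2l1 (−0.00132 with no filter), Pdia4 (0.00146) and Syvn1 (0.00984) without both replicates 4, Sesn2 (−0.00643 by limma-voom, −0.00585 without both replicates 4) and Dnajb1 (0.00127 with median-ratio scaling and by DESeq2, 0.0111 by limma on FPKM). With 1 library left out the ranges were Hyou1 −0.019 to 0.0423, Dnajb11 −0.00706 to 0.102, Sdf2l1 −0.0784 to 0.182, Manf −0.014 to 0.143, Calr −0.137 to 0.0411, Pdia4 −0.175 to 0.0137, Syvn1 −0.148 to 0.0346, Ern1 −0.227 to 0.0097, Trib3 −0.495 to 0.104, Sesn2 −0.0479 to 0.26, Hsph1 −0.0285 to 0.218 and Dnajb1 −0.0696 to 0.0263; the causes were not tested. Libraries with the same replicate number share only a number: their deviations correlated at 0.176, 0.184, 0.0469 and −0.0729, and not every library correlated best with its own number. Depth limits Trib3, Chac1, Hspa1a and Hspa1b.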

Other observations

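In each of the 14 chaperones and folding enzymes the coefficient of variation of CPM over 4 libraries was larger in Faslpr than in EAF2Faslpr cells, 5.87 to 23.3% (median 14.3%) against 1.58 to 7.93% (median 5.13%). The 4 degradation genes did the same, with medians of 13.3% and 5.85%. Among all tested genes with a mean of at least 10 CPM in both groups, 64.4% had the larger coefficient in Faslpr cells, with medians of 10.1% and 7.56%. The library of Faslpr replicate 4, which stood apart from its group over all genes, bears on this: among the 18 ER genes it was the highest of all 8 libraries for 10, such as Calr (553 CPM), Pdia4 (170.4 CPM) and Hsp90b1 (1939 CPM), and the lowest for 5, Hyou1, Dnajb9, Dnajc3, Canx and Sel1l. Faslpr replicate 2 was the lowest for 8 of the 18. The 18 genes were measured in the same libraries and are not separate observations. Jchain, a marker of antibody-secreting cells, was likewise highest in Faslpr replicate 4 (171 CPM) and lowest in Faslpr replicate 2 (45.8 CPM). Mzb1, another such marker, was highest in Faslpr replicate 3 (40.9 CPM) and lowest in Faslpr replicate 2 (13.3 CPM). Slamf7, Pou2af1, Sdc1 and Xbp1 of that list were instead highest in Faslpr replicate 1 (1523, 1289, 482 and 300.2 CPM). Irf4 was lowest in Faslpr replicate 4 (44.8 CPM). Derl3 was highest in Faslpr replicate 4 (5.97 CPM), Txndc5 lowest in Faslpr replicate 2 (113 CPM) and Prdm1 highest in Faslpr replicate 3 (12.55 CPM). The part of these markers in the spread was not tested. Without Faslpr replicate 4, a setting chosen after seeing the data, 16 of the 18 kept the larger coefficient in Faslpr cells, with medians of 10.1% over 3 libraries and 5.33% over 4, while the share over all genes was 47.0%. With any other single library left out, 16 to 18 of the 18 did so. In the wider lists the coefficient was larger in Faslpr cells for 15 of 19 translocation genes, 12 of 17 oxidative folding genes, 12 of 17 other degradation genes, 23 of 32 other heat shock genes, 14 of 24 other ATF4 targets, 5 of 11 further factors of the unfolded protein response and 4 of 10 genes in the list of eIF2 kinases, eIF2B subunits, Eif2s1 and Ppp1r15b. In the ATF4 and CHOP arm the medians were 14.9% in Faslpr and 18.3% in EAF2Faslpr cells, and in the heat shock genes 11.9% and 10.4%. This comparison was made after the values were seen, and was not tested.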
